A study of Homo sapiens with 23 samples.

Results

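The genes described here are 10 regulators that carry cells through S phase and into mitosis: the cyclin genes *CCNE1*, *CCNE2*, *CCNA2*, *CCNB1* and *CCNB2*, the cyclin-dependent kinase (CDK) genes *CDK2* and *CDK1*, and the phosphatase genes *CDC25A*, *CDC25B* and *CDC25C*. They were chosen by name and by role, not by a measured value, but with earlier results of these data known. All 10 were found among the 61806 genes of the first count table and among the 42901 genes of a second table of deeper libraries. Each had 1 row in either table, and all 10 passed the filter on low counts in every comparison.

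A CDK is inactive until a cyclin binds it, and the cyclins are made and destroyed in turn, so that cyclin levels order the events of the cell cycle. Cyclin E with CDK2 starts DNA replication, cyclin A2 acts with CDK2 in S phase and with CDK1 later, and cyclin B with CDK1 drives mitosis. The CDC25 phosphatases remove the inhibitory phosphates that hold these kinases back. In dividing cells the mRNAs of cyclin E and *CDC25A* are highest around the start of S phase, whereas those of cyclin A2, the B cyclins, *CDK1* and *CDC25C* build up towards mitosis.

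A549, an established human lung adenocarcinoma line of epithelial cells, was depleted of THUMPD3, a tRNA methyltransferase, and ribosomal RNA-depleted total RNA was sequenced. In the siRNA arm, cells transfected with an siRNA against *THUMPD3* (siD3 #3, 3 libraries) were compared with siControl (2 libraries). In the shRNA arm, lentiviral pLKO-Tet-On constructs carried inducible hairpins, and puromycin-selected cells with shD3 #1 (3 libraries) or shD3 #4 (3 libraries) were compared with sh1Control and sh4Control (3 libraries each). A second set of 6 deeper libraries held 3 of shD3 #1 and 3 of sh1Control. All groups share the A549 background. The study's methods call the control samples untreated, and in the case of shD3 #1 describe them as cells without THUMPD3 depletion. The hairpins were induced with doxycycline. Whether the shRNA controls also received it is not given in the sources used here, so its effect was not separated from that of the knockdown. The siRNA cells were harvested 1 day earlier than the shRNA cells, so that the type of knockdown and the time of harvest cannot be told apart. The replicates are labelled as biological.

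Total counts ran from 9854294 to 22101059 in the 17 first libraries and from 27285889 to 59974740 in the 6 deep ones. *THUMPD3* itself fell in every comparison, by 2.54 on the log2 scale in siD3 #3, 1.67 in shD3 #4, 0.97 in shD3 #1 and 1.01 in deep shD3 #1, with no overlap between knockdown and control libraries. The 4 epithelial markers examined (*KRT8*, *KRT18*, *KRT19* and *EPCAM*) were present in all groups, at 2347 to 5469 cpm (counts scaled to a common library size) in sum. Of 4 markers of other cell types, *PTPRC*, *PECAM1* and *CD3E* had at most 10 counts in a library, and the sum of the list, nearly all of it *CD14*, was 2.33 to 7.26 cpm. The shallowest library, at 9854294 counts, was replicate 3 of shD3 #1. In siD3 #3, replicate 3 stood above the other replicates for 10 of the 10 members.

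Positions are from GENCODE release 44 on GRCh38. *CCNB1* spans chr5:69167135-69178245 on the plus strand and overlaps no other annotated gene, and the same holds for *CDK1* at chr10:60778331-60794852, *CCNE1* at chr19:29811991-29824312 and *CDC25B* at chr20:3786772-3806121. *CCNA2* at chr4:121816444-121823883 overlaps *EXOSC9*, which runs on the opposite strand. *CCNB2* at chr15:59105126-59125045 overlaps 2 long non-coding RNA genes and has a processed pseudogene on chromosome 7. *CDK2* at chr12:55966781-55972789 overlaps *PMEL*, *CDC25C* at chr5:138285269-138338355 overlaps *FAM53C*, and *CCNE2* overlaps *INTS8* and *NDUFAF6*. *CDC25A* at chr3:48157146-48188417 overlaps 3 short non-coding genes or pseudogenes. The library kit kept strand, and the study's methods name the gene counting mode of STAR, which counts a read only where it overlaps 1 gene. Which of its strand settings was used is not given in the sources used here.

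Promoters of genes expressed late in the cell cycle often hold CCAAT boxes, bound by NF-Y, and a cell cycle genes homology region (CHR), bound by the DREAM and MYB-MuvB complexes, and those of S phase genes often hold E2F sites. RefSeq windows of 250 bases before to 50 after a start site (GRCh38.p14) were given for 8 of the 10 members (15 windows) and not for *CDK2* and *CCNE2*. Both strands were searched for CCAAT, for TTTGAA or TTCGAA as the letters of a CHR, and for TTTGGCGC, TTTCCCGC, TTTGCCGC or TTTCGCGC as E2F-type letters. The 170 bases before a start site are printed for the 3 genes called lower in all 3 first comparisons (*CCNA2*, *CCNB1*, *CCNB2*), for *CDK1* as the kinase partner of the B cyclins, and for *CCNE1* as the member with no match. *CDK1* has windows at 2 start sites, of which the upstream one is printed. These were picked after the matches and values were known. Capitals mark a match on either strand, so that CCAAT on the other strand reads ATTGG. No other forms of these elements were searched, so lower case does not show that an element is absent.
CCNB1, chr5:69166980-69167149, plus strand: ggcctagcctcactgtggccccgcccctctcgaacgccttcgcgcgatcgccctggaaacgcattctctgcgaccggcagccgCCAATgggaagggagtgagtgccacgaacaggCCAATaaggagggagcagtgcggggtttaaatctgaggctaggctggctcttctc
CCNB2, chr15:59104976-59105145, plus strand: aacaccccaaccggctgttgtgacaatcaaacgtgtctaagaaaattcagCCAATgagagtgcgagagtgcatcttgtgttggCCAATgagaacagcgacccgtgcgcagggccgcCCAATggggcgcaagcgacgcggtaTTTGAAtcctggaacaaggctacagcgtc
CDK1, chr10:60778161-60778330, plus strand: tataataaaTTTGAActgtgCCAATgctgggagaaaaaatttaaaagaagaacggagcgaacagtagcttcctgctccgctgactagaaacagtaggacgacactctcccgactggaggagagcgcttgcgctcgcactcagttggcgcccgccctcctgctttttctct
CCNA2, chr4:121823884-121824053, minus strand: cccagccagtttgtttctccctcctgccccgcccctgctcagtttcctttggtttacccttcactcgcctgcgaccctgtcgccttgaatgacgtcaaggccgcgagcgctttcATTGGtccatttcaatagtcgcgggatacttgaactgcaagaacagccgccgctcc
CCNE1, chr19:29811821-29811990, plus strand: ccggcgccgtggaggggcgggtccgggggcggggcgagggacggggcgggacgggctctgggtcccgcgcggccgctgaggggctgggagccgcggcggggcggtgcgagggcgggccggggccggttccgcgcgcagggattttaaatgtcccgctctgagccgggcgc

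CCAAT was found in a window of 7 of the 8 members (10 of 15 windows), and in 39.7% of all genes with a window (34.6% of windows). The CHR letters were found in 4 of 8, *CCNB2*, *CDK1*, *CDC25B* and *CDC25C*, and in 19.5% of all genes. E2F-type letters were found in 2 of 8, *CDC25A* and *CDK1*, and in 3.99% of all genes. The *CCNB2* window holds 4 CCAAT matches, at -244, -120, -87 and -54 from the start site, ahead of TTTGAA at -29, and the first of them lies outside the printed stretch. In *CCNB1* the matches lie at -87 and -55, close to the spacing of the last pair in *CCNB2*. The upstream *CDK1* window holds TTTCGCGC at 20, past the printed stretch. Its downstream window, not printed, holds CCAAT at -78 and -46, TTTGAA at -69, -13 and 10, and TTTCGCGC at -128. A match in letters is a description of the sequence only and was not tied to any measurement. A member without a match is not shown to lack the element, since only the listed letters were searched.

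Levels are given as cpm after TMM scaling. Levels of different genes are compared only per kb of exon. In sh1Control the order per kb ran from *CCNB1* (76.4 ± 1.08 cpm per kb, SD, n = 3) to *CCNA2* (34.2 ± 1.27), *CDK1* (33.2 ± 0.806), *CDC25B* (29.3 ± 0.731), *CCNB2* (26.7 ± 1.07), *CCNE1* (13.3 ± 0.802), *CDK2* (12.9 ± 0.572), *CDC25C* (5.32 ± 0.379), *CDC25A* (4.54 ± 0.0394) and *CCNE2* (2.65 ± 0.329). *CCNA2* and *CDK1* did not differ beyond their SDs, nor did *CCNE1* and *CDK2*. In siD3 #3 the order was another one: *CDC25B* stood first at 18.5 ± 1.62 cpm per kb, *CCNE1* followed at 13.4 ± 0.176, *CCNB1* came after it at 10.4 ± 2.20, and every other member lay at 3.83 or below. The deep sh1Control libraries, scaled in a table of their own, had *CDC25B* first at 71.8 ± 0.897 cpm per kb, ahead of *CCNB1* at 61.8 ± 1.55, and *CDK1* at 13.2 ± 0.255.

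**Figure D1:**
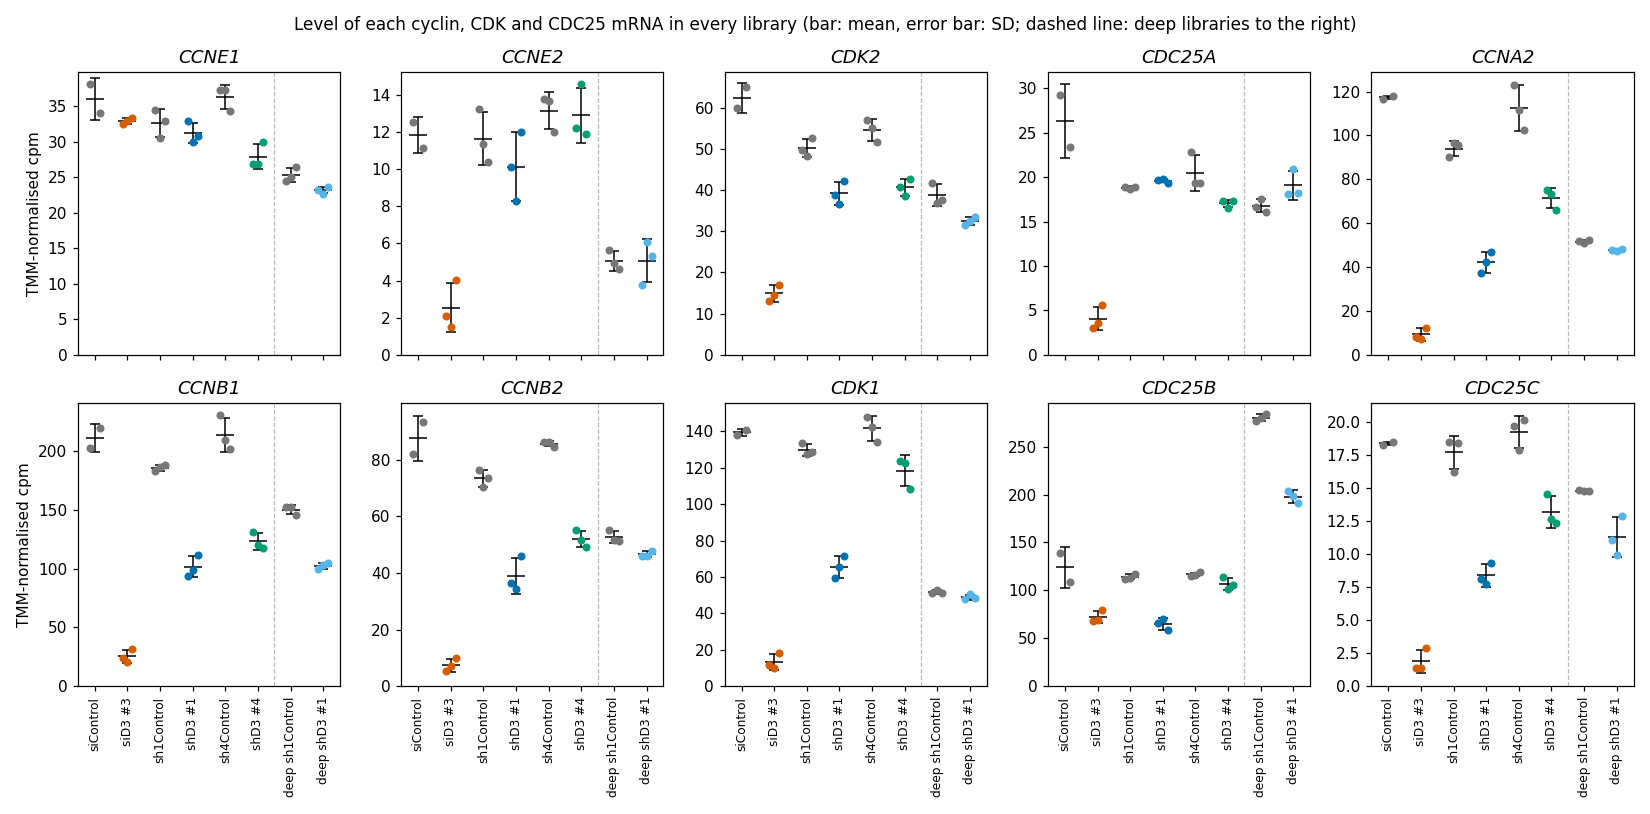
Level of each member in every library (y axis: TMM-normalised cpm from 0; x axis: the 8 groups; points: libraries; bar and error bar: mean and SD; dashed line: the deep libraries to the right, which were scaled in a table of their own). *CCNB1* lies at 21.0 to 31.3 cpm in siD3 #3 and at 203 to 220 in siControl, whereas *CCNE1* lies at 32.5 to 33.3 in siD3 #3 and at 34.0 to 38.1 in siControl.

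To ask which of these regulators changed when THUMPD3 was depleted, every knockdown was first set against its own controls. A gene was called lower or higher where the adjusted p over all genes tested was under 0.05 and the change was 1.5-fold or more (edgeR's quasi-likelihood test, Benjamini-Hochberg adjustment). In siD3 #3, 9 of the 10 members were lower, all but *CCNE1*. Of all genes tested 9.42% were lower and 12.5% were higher. In shD3 #1 (first libraries), 6 were lower (*CCNA2*, *CCNB1*, *CCNB2*, *CDK1*, *CDC25B* and *CDC25C*), where 14.6% of all genes were lower and 14.5% higher. In shD3 #4, 3 were lower (*CCNA2*, *CCNB1* and *CCNB2*), where 4.49% of all genes were lower and 8% higher. In deep shD3 #1 none passed both thresholds, where 14.1% of all genes were lower and 15% higher. The transcripts are measured in bulk RNA, so fewer cells in a phase of the cycle and less mRNA per cell cannot be told apart in any of these values.

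No member was higher in any comparison with edgeR or with DESeq2. At an unadjusted p under 0.05 and any fold change, 0 members were higher in siD3 #3 (22.7% of all genes), shD3 #1 (30.6%) and shD3 #4 (23.7%) and 1, *CDC25A*, in deep shD3 #1 (32.5%). In deep shD3 #1, where edgeR and DESeq2 called 0 members lower, 7 were lower at an unadjusted p under 0.05 (33.1% of all genes) and 5 at an adjusted p under 0.05 without the fold threshold (31.5%). The median log2 fold change of the members was -2.87 in siD3 #3, -0.82 in shD3 #1, -0.39 in shD3 #4 and -0.15 in deep shD3 #1, and that of all genes tested was 0.03, -0.01, 0.01 and -0.02. Counted by overlap, every knockdown library lay below every control library for 10 members in siD3 #3 (28.1% of all genes), 7 in shD3 #1 (30.7%), 9 in shD3 #4 (23.9%) and 8 in deep shD3 #1 (34%). On average over the 3 first knockdowns, in 1 model of 17 libraries, 8 members were lower, against 6.96% of all genes. The 2 others were *CCNE1* (average effect -0.19 ± 0.04, adjusted p = 9.41e-04, edgeR) and *CDC25B* (-0.57 ± 0.05, adjusted p = 7.91e-09). Both passed the p threshold and missed the fold threshold.

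**Figure D2:**
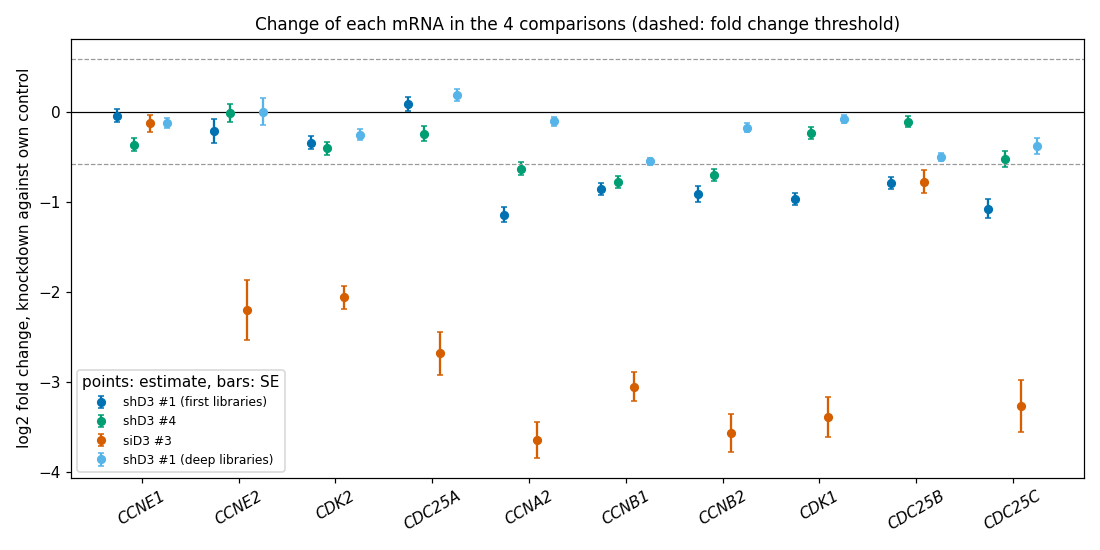
Log2 fold change of each member against its own controls (y axis) in the 4 comparisons, with members on the x axis (points: edgeR estimates; bars: SE; dashed lines: the threshold of 1.5-fold in either direction). The siD3 #3 estimates run from -3.65 (*CCNA2*) to -0.13 (*CCNE1*), and those of shD3 #4 stay between -0.78 and -0.02.

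The cyclin E genes encode the partners of CDK2 at the start of S phase. *CCNE1* was at 38.1 and 34.0 cpm in siControl and at 32.5, 32.9 and 33.3 in siD3 #3. It was at 34.5, 30.5 and 32.9 cpm in sh1Control against 32.8, 30.02 and 30.8 in shD3 #1, and at 37.3, 37.3 and 34.3 in sh4Control against 26.9, 26.9 and 29.9 in shD3 #4. Its groups overlapped in shD3 #1 and were set apart narrowly in siD3 #3 and more widely in shD3 #4. The log2 fold change was -0.13 ± 0.10 (SE) in siD3 #3 (adjusted p = 0.329, edgeR), -0.05 ± 0.07 in shD3 #1 (adjusted p = 0.608) and -0.37 ± 0.07 in shD3 #4 (adjusted p = 2.11e-04), so that its largest estimate, past the p threshold only, came from the knockdown with the smallest estimates for 7 of the other 9 members. In the deep libraries it was at 24.5, 25.0 and 26.4 cpm in the controls and at 23.2, 22.7 and 23.6 in shD3 #1 (-0.13 ± 0.06, adjusted p = 0.0655).

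*CCNE2*, the other cyclin E gene, behaved differently after the siRNA. It was at 12.5 and 11.2 cpm in siControl and at 2.08, 1.52 and 4.02 in siD3 #3, without overlap and with the highest of the 3 in replicate 3. The log2 fold change was -2.21 ± 0.33 (adjusted p = 0.00220). In the hairpin lines its groups overlapped, with 13.2, 11.4 and 10.4 cpm in sh1Control against 10.1, 8.27 and 12.004 in shD3 #1 (adjusted p = 0.192) and 13.8, 13.7 and 11.98 in sh4Control against 12.2, 14.6 and 11.9 in shD3 #4 (adjusted p = 0.909). It had 26 to 79 counts in a library of siD3 #3, the smallest numbers beside those of *CDC25C*, and the deep libraries overlapped as well, with 5.63, 4.92 and 4.62 cpm in the controls and 3.78, 6.07 and 5.35 in shD3 #1 (adjusted p = 0.993). The sign of its small differences in shD3 #4 and the deep libraries turned under other settings.

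*CDK2* encodes the kinase bound by cyclins E and A. Its level was 59.8 and 65.0 cpm in siControl against 13.1, 14.5 and 17.1 in siD3 #3, or 23.9% of the control mean. In shD3 #1 it was 38.8, 36.6 and 42.2 cpm against 49.8, 48.2 and 52.6 in sh1Control, and in shD3 #4 it was 40.6, 38.5 and 42.7 against 57.0, 55.04 and 51.7 in sh4Control. No comparison showed overlap. The log2 fold changes were -2.06 ± 0.12 (adjusted p = 2.98e-05), -0.35 ± 0.07 (adjusted p = 7.08e-04) and -0.41 ± 0.07 (adjusted p = 2.34e-05), of which the last 2 passed the p threshold but not the fold threshold. In the deep libraries *CDK2* was at 41.8, 36.9 and 37.6 cpm in the controls and at 31.5, 32.5 and 33.5 in shD3 #1.

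*CDC25A* encodes the phosphatase that activates cyclin E and cyclin A complexes of CDK2. It stood at 29.3 and 23.4 cpm in siControl and at 3.04, 3.63 and 5.599 in siD3 #3 (log2 fold change -2.68 ± 0.24, adjusted p = 1.69e-04). In shD3 #1 it stood at 19.7, 19.8 and 19.4 cpm, narrowly above the 18.9, 18.6 and 18.9 of sh1Control (0.08 ± 0.08, adjusted p = 0.388). The deep libraries had it at 18.1, 21.0 and 18.2 cpm in shD3 #1 and at 16.6, 17.6 and 16.1 in the controls (0.18 ± 0.07, adjusted p = 0.0376). The siRNA thus lowered *CDC25A* to 15.5% of the control mean, while neither set of shD3 #1 libraries lay below its controls. *CCNE2*, at 21.5% of the control mean in siD3 #3, overlapped its controls in both sets of shD3 #1 libraries. In shD3 #4 the values 17.3, 16.6 and 17.3 cpm lay below the 22.8, 19.3 and 19.3 of sh4Control (-0.25 ± 0.08, adjusted p = 0.0208).

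*CCNA2* encodes cyclin A2, which works in S phase and in the entry into mitosis. It was at 117 and 118 cpm in siControl and at 8.17, 7.32 and 12.5 in siD3 #3, which is 7.94% of the control mean and the deepest fall of any member. It was at 89.999, 96.4 and 95.6 cpm in sh1Control against 37.2, 42.4 and 46.9 in shD3 #1, and at 123, 112 and 102 in sh4Control against 75.2, 73.2 and 66.2 in shD3 #4. All 3 comparisons were without overlap and past both thresholds: -3.65 ± 0.20 (adjusted p = 1.62e-05), -1.14 ± 0.08 (adjusted p = 7.04e-09) and -0.64 ± 0.07 (adjusted p = 8.57e-08). The deep libraries held 51.7, 50.8 and 52.2 cpm in the controls and 47.8, 47.6 and 48.1 in shD3 #1, set apart but close, with a log2 fold change of -0.11 ± 0.05 (adjusted p = 0.0550). The call in shD3 #4 sat near the fold threshold and was lost without sh4Control replicate 1, where the estimate was -0.57.

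*CCNB1* encodes cyclin B1, the main mitotic partner of CDK1. Its level was 203 and 220 cpm in siControl and 23.8, 21.0 and 31.3 in siD3 #3 (-3.05 ± 0.16, adjusted p = 1.46e-05). In shD3 #1 it was 94.1, 99.1 and 112 cpm against 183, 187 and 188 in sh1Control (-0.86 ± 0.07, adjusted p = 2.95e-08). In shD3 #4 it was 131, 121 and 118 cpm against 230, 209 and 202 in sh4Control (-0.78 ± 0.07, adjusted p = 9.18e-10). The hairpins left it at 54.6% and 57.6% of the control mean. Of the 10 members it also had the largest estimate in the deep libraries, at 99.5, 103 and 105 cpm in shD3 #1 against 153, 152 and 146 in the controls (-0.55 ± 0.04, adjusted p = 3.91e-08), just inside the fold threshold.

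*CCNB2*, which encodes cyclin B2, followed the same order of knockdowns. It stood at 82.0 and 93.2 cpm in siControl and at 5.27, 7.03 and 9.82 in siD3 #3 (-3.57 ± 0.21, adjusted p = 2.95e-05). It stood at 76.3, 70.4 and 73.6 cpm in sh1Control against 36.4, 34.2 and 46.05 in shD3 #1 (-0.91 ± 0.09, adjusted p = 4.35e-07), and at 86.2, 86.3 and 84.5 in sh4Control against 55.2, 51.6 and 49.2 in shD3 #4 (-0.70 ± 0.06, adjusted p = 2.55e-09). No library of a knockdown reached a library of its controls. The deep libraries differed less, with 55.1, 51.8 and 51.4 cpm in the controls and 45.9, 46.0 and 47.8 in shD3 #1 (-0.18 ± 0.05, adjusted p = 0.00656).

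*CDK1* encodes the kinase that starts mitosis. It was at 138 and 141 cpm in siControl and at 11.6, 9.78 and 18.4 in siD3 #3, or 9.50% of the control mean (-3.39 ± 0.22, adjusted p = 4.20e-05). In shD3 #1 it was at 59.5, 65.5 and 71.4 cpm against 133, 127 and 129 (-0.97 ± 0.07, adjusted p = 1.06e-08). The shD3 #4 libraries, at 124, 123 and 108 cpm, lay much closer to the 148, 142 and 134 of sh4Control (-0.24 ± 0.07, adjusted p = 0.00478). So *CDK1* fell about as far as its cyclin partners in siD3 #3 and shD3 #1, and lay less far below its controls than *CCNB1* and *CCNB2* in shD3 #4, a difference between genes that was not itself tested. In the deep libraries it was at 51.0, 52.8 and 51.3 cpm in the controls and at 47.7, 50.5 and 48.3 in shD3 #1 (-0.08 ± 0.05, adjusted p = 0.154). The mean of sh1Control was 130 cpm in the first table and 51.7 in the deep one, so levels of *CDK1* are not compared between the tables.

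*CDC25B* and *CDC25C* encode the phosphatases that act on cyclin B and CDK1 at the entry into mitosis. *CDC25C* was at 18.3 and 18.5 cpm in siControl and at 1.40, 1.35 and 2.90 in siD3 #3 (-3.27 ± 0.29, adjusted p = 1.57e-04). It was at 18.5, 16.2 and 18.4 cpm in sh1Control against 8.11, 7.70 and 9.35 in shD3 #1 (-1.08 ± 0.10, adjusted p = 2.87e-07), and at 19.7, 17.9 and 20.1 in sh4Control against 14.6, 12.6 and 12.3 in shD3 #4 (-0.52 ± 0.09, adjusted p = 3.22e-05). Its groups were apart throughout, also in the deep libraries, where the controls had 14.8, 14.7 and 14.8 cpm and shD3 #1 had 11.1, 9.92 and 12.9. The shD3 #4 call turned on the fold threshold, since without shD3 #4 replicate 1 the estimate was -0.61 and the gene was called lower.

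*CDC25B* did not share that order. It was at 139 and 109 cpm in siControl, a pair of controls that lay far apart, and at 68.0, 69.0 and 79.4 in siD3 #3 (-0.78 ± 0.13, adjusted p = 0.00290). It was at 112, 113 and 118 cpm in sh1Control against 66.0, 70.1 and 58.6 in shD3 #1 (-0.79 ± 0.07, adjusted p = 8.96e-08), and at 115, 116 and 119 in sh4Control against 113, 101 and 105 in shD3 #4 (-0.11 ± 0.06, adjusted p = 0.163). The estimates for siD3 #3 and shD3 #1 lay within 1 SE of each other, and the shD3 #4 libraries lay only just under their controls. The deep libraries held it at 277, 280 and 284 cpm in the controls and at 204, 198 and 191 in shD3 #1 (-0.50 ± 0.04, adjusted p = 7.61e-08). Here too the tables differ in level, with a mean of 114 cpm in sh1Control of the first table and 280.4 in the deep one. When the siD3 #3 fold was tested against the threshold itself (glmTreat), its adjusted p was 0.171.

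The size of the effect was then compared between the 3 knockdowns of the first libraries. The interaction of knockdown type and condition passed an adjusted p of 0.05 for 10 of the 10 members, against 52.4% of all genes tested. For *CCNE1* it was lost (adjusted p = 0.0514 to 0.0946, edgeR) without any 1 of sh1Control replicate 2 or 3, shD3 #1 replicate 1, sh4Control replicate 1 or 2 and shD3 #4 replicate 1 or 2. Pairwise, siD3 #3 lowered 8 members further than shD3 #1 did (11.7% of all genes) and 9 further than shD3 #4 did (8.56%), past both thresholds. The difference between siD3 #3 and shD3 #1 was -2.75 ± 0.20 for *CDC25A*, -2.64 ± 0.19 for *CCNB2* and -2.49 ± 0.18 for *CCNA2*, but 0.03 ± 0.13 for *CDC25B* and -0.07 ± 0.11 for *CCNE1*. Between the hairpins 2 of the 10 members differed past both thresholds, both lower in shD3 #1. Of all genes tested 13.8% were lower in the same contrast, so the count of members is near that share. The 2 were *CDK1* (-0.73 ± 0.17, adjusted p = 0.00201, edgeR) and *CDC25B* (-0.68 ± 0.12, adjusted p = 1.46e-04). *THUMPD3* itself was lowered more by shD3 #4 (31.0% of the control mean) than by shD3 #1 (50.6%). The difference was 0.70 ± 0.10 on the log2 scale (adjusted p = 1.17e-05, edgeR), the opposite order to that of *CDK1* and *CDC25B*. *THUMPD3* was lowered furthest in siD3 #3, to 17.1% of the control mean. Whether the changes of the members follow this depth was not tested.

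Ratios of members within a library cancel its scaling, apart from the prior count of 2 in log2 cpm, which weighs most at low counts. They are ratios of cpm and not of cpm per kb, so they are read only between groups. They rest on the same values as the tests of single genes, so their p-values add no separate support. The log2 ratio of *CCNB1* to *CCNE1*, a mitotic against an early cyclin, was 2.55 ± 0.20 (SD, n = 2) in siControl and -0.39 ± 0.28 (n = 3) in siD3 #3. It was 2.51 ± 0.10 in sh1Control against 1.70 ± 0.17 in shD3 #1, and 2.55 ± 0.07 in sh4Control against 2.14 ± 0.16 in shD3 #4. The 3 control groups lay close together, all 3 knockdowns lay below them, the siD3 #3 libraries by far the most. The mean change over the 3 knockdowns was -1.39 (exact two-sided permutation test within each type, 4000 assignments, p = 0.00025, the smallest they can give, and adjusted p = 0.001 over 4 ratios). The deep libraries had 2.57 ± 0.09 in the controls and 2.14 ± 0.04 in shD3 #1, a change of -0.43.

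The ratio of *CDK1* to *CDK2* changed by -0.61 on average (exact permutation p = 0.007, adjusted p = 0.00933). It fell by 1.37 in siD3 #3 and by 0.63 in shD3 #1, but was 0.16 higher in shD3 #4 and 0.17 higher in deep shD3 #1. For *CDC25C* to *CDC25B* the mean change was -1.06 (exact permutation p = 0.00075, adjusted p = 0.0015), with -2.53 in siD3 #3, -0.42 in shD3 #4, -0.25 in shD3 #1 and, outside that mean, 0.11 in deep shD3 #1. The cyclin B genes kept closer to each other: the ratio of *CCNB1* to *CCNB2* changed by 0.17 on average (exact permutation p = 0.163, adjusted p = 0.163), with 0.52 in siD3 #3, 0.05 in shD3 #1 and -0.07 in shD3 #4. In the deep libraries, by contrast, that ratio was 1.47 to 1.56 in the controls and 1.12 to 1.16 in shD3 #1.

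**Figure D3:**
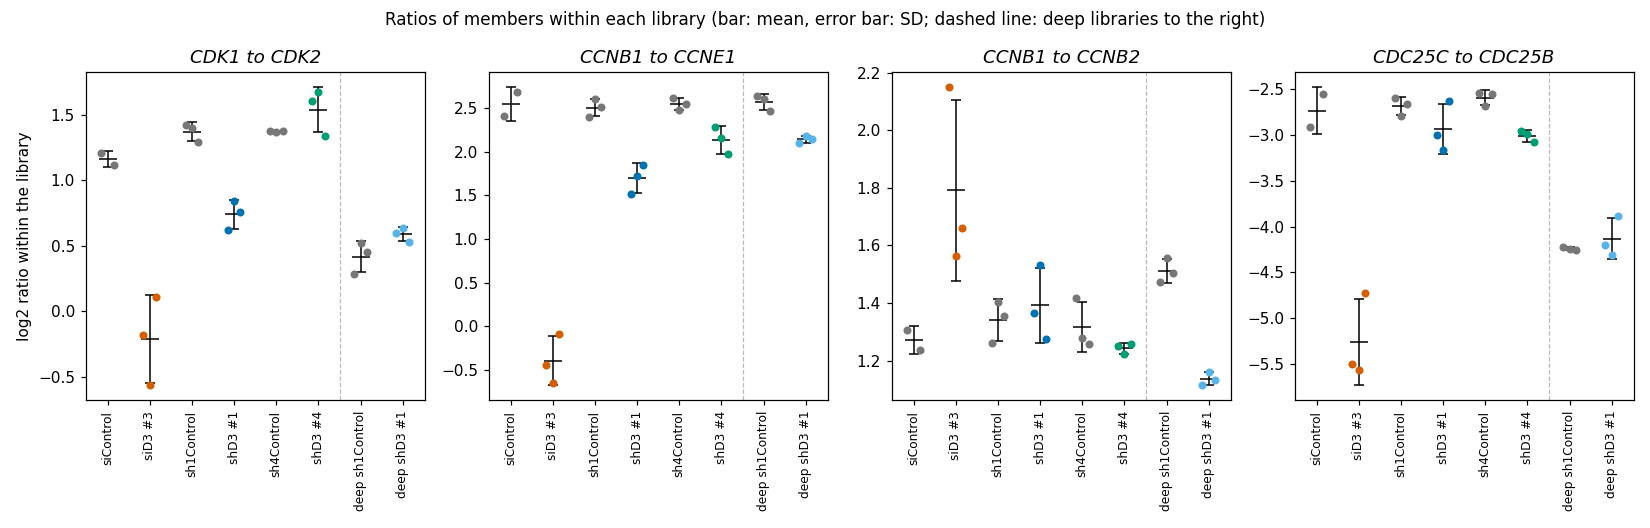
Log2 ratio of 4 pairs of members within each library (y axis) by group (x axis); points are libraries, bars and error bars are means and SDs, and the deep libraries stand right of the dashed line. *CCNB1* to *CCNE1* drops from 2.41 or above in siControl to between -0.65 and -0.09 in siD3 #3, while *CCNB1* to *CCNB2* stays between 1.22 and 2.15 in the first libraries.

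Across the 17 first libraries, 8 members each had another member at a Pearson r of 0.964 or above, and *CCNE1* stood farthest from the rest. The points share their library, depth and knockdown, so these correlations of log2 cpm are descriptions only. The nearest member to *CCNB1* was *CCNA2* (r = 0.994), and the nearest to *CDK1* was *CDC25C* (r = 0.993). For *CCNE1* the nearest was *CDC25B* at r = 0.274, and for *CDC25B* it was *CCNA2* at r = 0.768. Of all genes tested, those most like *CCNB1* were *RFC5* (r = 0.996), *NUP205* (0.995) and *MCM7* (0.995). Those most like *CCNE2* were *FAM111B* (0.981), *HELLS* (0.979) and *KNL1* (0.974), and those most like *CDC25B* were *ATL2* (0.970), *MIS18A* (0.968) and *KPNB1* (0.964).

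The closest paralogs of the members were hardly expressed. *CCNA1* had at most 7 counts in a library and *CDK3* at most 4, and neither was tested. *CCNB3*, a cyclin known mainly from meiosis, was at 2.86 to 3.41 cpm in sh1Control and 0.649 to 1.18 in shD3 #1. It was lower in shD3 #1 (-1.72 ± 0.24, adjusted p = 1.43e-05, edgeR) and in deep shD3 #1 (-1.08 ± 0.17), and its fold change was -0.54 in siD3 #3 (adjusted p = 0.153) and 0.01 in shD3 #4 (adjusted p = 0.971).

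Other genes of the pathway were examined by role. Among 8 activators and binding partners, 5 were lower in siD3 #3 (9.42% of all genes) and 4 in shD3 #1 (14.6%). In shD3 #4, 2 were lower (4.49%), and in deep shD3 #1, 2 (14.1%). None was higher in any comparison, where 8% to 15% of all genes were. *PLK1*, the mitotic kinase that activates CDC25C, was lower in all 3 first comparisons, with log2 fold changes of -3.18 in siD3 #3, -0.76 in shD3 #1 and -0.64 in shD3 #4. In deep shD3 #1 it was at -0.39 and missed the fold threshold. *CKS1B*, a small CDK-binding subunit, was at -2.18, -1.01 and -0.78, and at -1.05 in deep shD3 #1, where it was called as well. *CDK7*, the CDK-activating kinase, passed both thresholds in none, with fold changes of 0.01, 0.24 and -0.34, and its level in the deep table, 0.333 cpm in the controls, was far below the 23.0 cpm of sh1Control in the first table.

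Among 7 inhibitors and checkpoint kinases, 4 were lower and 2 higher in siD3 #3 (9.42% and 12.5% of all genes). In shD3 #1, 3 were lower and 2 higher (14.6% and 14.5%), and in shD3 #4, 1 was lower (4.49%). In deep shD3 #1, 1 was lower and 2 were higher (14.1% and 15%). *CDKN1A*, which encodes the CDK inhibitor p21, rose from 68.6 cpm in siControl to 782 in siD3 #3 (log2 fold change 3.51 ± 0.15) and from 48.0 to 199 in shD3 #1 (2.07 ± 0.08). In shD3 #4 it was 59.5 cpm against 52.6, a log2 fold change of 0.20 ± 0.06 that missed the fold threshold. In deep shD3 #1 it rose by 1.24 ± 0.05. The other gene that was higher in these 3 comparisons was *CDKN1C*, the inhibitor p57 (1.15 ± 0.36 in siD3 #3, 3.19 ± 0.24 in shD3 #1 and 2.35 ± 0.51 in deep shD3 #1), which is named because its values were seen. *PKMYT1*, whose kinase puts inhibitory phosphates on CDK1, was lower in all 3 first comparisons, at -3.20 in siD3 #3, -0.67 in shD3 #1 and -1.002 in shD3 #4. In deep shD3 #1 it was at -0.38 and missed the fold threshold.

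Of 10 factors of the ubiquitin ligases that destroy cyclins and their regulators, 7 were lower and 1 higher in siD3 #3 (9.42% and 12.5% of all genes). In shD3 #1, 5 were lower and 2 higher (14.6% and 14.5%), and in shD3 #4, 2 were lower (4.49%). In deep shD3 #1, 3 were lower and 1 higher (14.1% and 15%). *CDC20*, the mitotic activator of the anaphase-promoting complex, was at -3.63 in siD3 #3, -1.27 in shD3 #1, -1.09 in shD3 #4 and -0.75 in deep shD3 #1. *UBE2S*, which extends ubiquitin chains for the same complex, was also called lower in all 4 comparisons. *FBXW7*, the receptor that targets cyclin E, was higher in siD3 #3 (1.26 ± 0.09) and shD3 #1 (0.90 ± 0.07) and at -0.01 ± 0.08 in shD3 #4. In deep shD3 #1 it was at 0.45 ± 0.06 and missed the fold threshold. The other gene higher in shD3 #1, and the 1 higher in deep shD3 #1, was *BTRC*, a receptor of the same ligase family (1.34 and 0.92), also named because its values were seen.

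In the axis of 6 genes of the phosphatase PP2A-B55 and its restraint in mitosis, *MASTL*, the Greatwall kinase, was the 1 gene called. It was lower in siD3 #3 (-2.02 ± 0.16), shD3 #1 (-1.11 ± 0.07) and deep shD3 #1 (-0.82 ± 0.06) and at -0.33 ± 0.07 in shD3 #4. Of all genes, 9.42%, 14.6%, 14.1% and 4.49% were lower in the same order. *ENSA*, a substrate of Greatwall, was at -0.26, 0.45, 0.27 and 0.04 in the same order. Among 11 transcription regulators of cell cycle genes, 7 were lower in siD3 #3 (9.42% of all genes) and 6 in shD3 #1 (14.6%). In shD3 #4, 3 were lower (4.49%), and in deep shD3 #1, 2 (14.1%). None was higher in any comparison, where 8% to 15% of all genes were. *MYBL2*, a subunit of the activating MYB-MuvB complex, was at -3.28 in siD3 #3, -1.34 in shD3 #1 and -0.61 in shD3 #4, and *FOXM1*, which activates genes of late cycle phases, at -3.17, -0.80 and -0.75. In deep shD3 #1 *MYBL2* was called lower (-0.83), whereas *FOXM1*, at -0.52, missed the fold threshold. *RBL2*, the p130 subunit of the repressive DREAM complex, lay between -0.05 and 0.09 in all 4 comparisons.

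**Figure D4:**
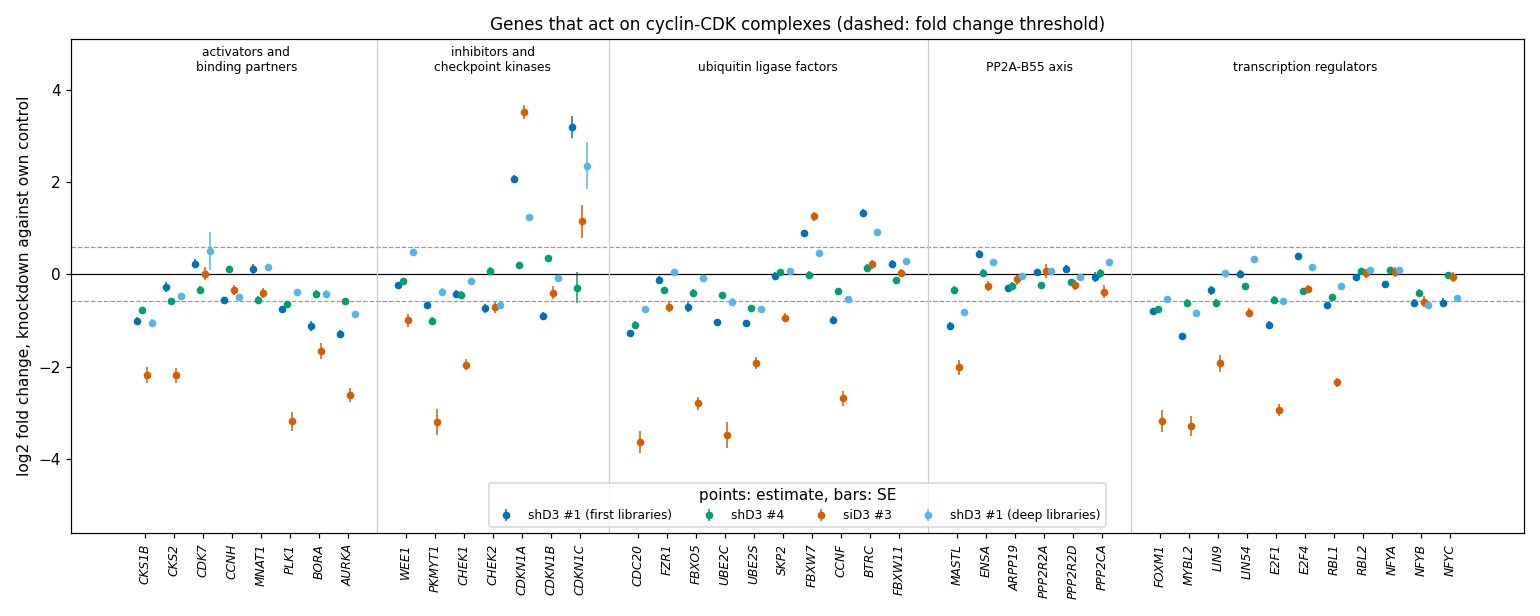
Log2 fold change against own controls (y axis) of the genes that act on cyclin-CDK complexes (x axis, grouped by role) in the 4 comparisons; points are edgeR estimates, bars are SEs and dashed lines mark the fold threshold. *CDC20* is the lowest gene of siD3 #3 at -3.63 and *CDKN1A* the highest at 3.51.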

How the data were processed

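RNA from A549 cells was sequenced in 23 libraries. Per the labels, the authors used Trimmomatic 0.40 and STAR 2.7.10a on GRCh38.p14. Their methods name STAR's gene counting mode and the NCBI RefSeq annotation. The deposited values are counts of reads per gene, not normalised, in 2 tables, of which the first is keyed by Ensembl identifier (61757 of 61806 identifiers were paired with a symbol) and the other by symbol. The tables were scaled and tested separately.

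In edgeR 4.0.16 under R 4.3.3, every knockdown was tested against its controls by quasi-likelihood, with TMM factors and genes kept by filterByExpr. The SE of a log2 fold change was derived as its absolute value divided by the square root of the F statistic of its test. Benjamini-Hochberg adjustment ran over all genes tested, and thresholds were an adjusted p of 0.05 and a 1.5-fold change. The average effect and the interaction came from 1 model of 17 libraries with type, condition and their interaction. Log2 cpm for ratios and correlations used a prior count of 2. Alternatives used DESeq2 1.42.0, other normalisations, filters, thresholds and designs, and each replicate left out. Ratios, motif counts and figures were made in python 3.11.15 (pandas 2.3.3, numpy 2.4.6, matplotlib 3.10.9).

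The members and gene lists were chosen with earlier results of these data known. Named genes were the members, *THUMPD3*, in each list the lowest and highest gene by mean change over the 3 first comparisons and up to 4 genes called the same way in all 3, and the 3 genes most correlated with *CCNB1*, *CCNE2* and *CDC25B*. P-values measure the spread between libraries labelled as biological replicates, and counting limits precision most for *CCNE2* and *CDC25C* in siD3 #3 (23 to 79 counts).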

Additional observations from a re-analysis of the deposited data

Results flagged for a closer look

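The effect of the knockdown differed between siD3 #3, shD3 #1 and shD3 #4 for each of the 10 members, by the edgeR test of the interaction in 1 model of 17 libraries, where 52.4% of all genes tested also differed. The adjusted p was 1.64e-10 for *CCNA2*, 2.78e-10 for *CCNB1*, 4.22e-10 for *CCNB2*, 2.31e-10 for *CDK1* and 9.74e-10 for *CDK2*. It was 1.28e-09 for *CDC25A*, 2.50e-08 for *CDC25C* and 7.24e-06 for *CCNE2*. The last pair had larger values, 1.15e-04 for *CDC25B* and 0.0349 for *CCNE1*. *CCNE1* was lowest in shD3 #4 (-0.37) and *CDC25B* was lower in siD3 #3 and shD3 #1 (-0.78 and -0.79), whereas the other 8 were lowest in siD3 #3. siD3 #3 differed from the hairpins in delivery, targeting sequence, harvest time and depth of depletion, which cannot be told apart. *THUMPD3* was at 17.1% of the control mean in siD3 #3, 31.0% in shD3 #4 and 50.6% in shD3 #1.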

How the results depend on the processing

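Of 1692 values recomputed under the alternatives, 1651 kept their direction and their side of the threshold, and of 800 fold changes of members 772 did. With a log2 fold change threshold of 1, members called lower numbered 2 in shD3 #1 and 0 in shD3 #4, and with glmTreat 1 in shD3 #4. Leaving out each replicate gave 2 to 4 members lower in shD3 #4, 8 to 9 for the average effect and 9 to 10 that differed between knockdowns. The counts in siD3 #3 (9), shD3 #1 (6) and deep shD3 #1 (0) stayed as they were. Without the filter on low counts 9 members differed between knockdowns, *CCNE1* being the exception. With the replicate block the counts lower were 9 in siD3 #3, 6 in shD3 #1, 3 in shD3 #4, 0 in deep shD3 #1 and 9 for the average effect, where *CDC25B* was called (-0.60), and the block changed no other count. Same-numbered replicates correlated at -0.085 to 0.115 in their deviations from the group means, and not every library correlated best with its own number, so the numbers were not taken as pairs.

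Directions turned only for small differences that no test had called, and the cause was not tested. Without 1 replicate, *CCNE1* in shD3 #1 ranged from -0.096 to 0.0021, *CCNE2* from -0.12 to 0.032 in shD3 #4 and from -0.14 to 0.17 in deep shD3 #1, and the difference of *CDC25B* between siD3 #3 and shD3 #1 from -0.15 to 0.20. These turned, respectively, without sh1Control replicate 1, without sh4Control replicate 1 or 2 or shD3 #4 replicate 1 or 3, without replicate 1 of either deep group, and without siControl replicate 2, siD3 #3 replicate 3 or shD3 #1 replicate 3. *CCNE2* was 0.019 in shD3 #4 with upper-quartile factors, and in deep shD3 #1 it was 0.0021 with DESeq2 and 0.0067 with its size factors. The *CDC25B* difference was -0.0067 without the filter and -0.033 with the replicate block. Its difference between siD3 #3 and shD3 #4 was -0.48 and lost its call without siControl replicate 1. That of *CDC25C* between shD3 #1 and shD3 #4 gained a call in 4 of the fits without 1 replicate (-0.62 to -0.59).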
